A study of Mus musculus with 60 samples.

Results

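Huntingtin (Htt) and 7 genes whose proteins are described as binding it were read in every library of an RNA-Seq series of mouse brain. The genes are Htt, Hap1, Hip1, Hip1r, Zdhhc17, Optn, Pacsin1 and Dctn1, which are 8 of the 47574 gene entries used. They were taken by name, and all 8 passed the filter on low values in every comparison. The 60 libraries were labelled as cortex or striatum of mice of the strain c57BL-6N aged 3 months, in 10 groups of 6 libraries with 3 males and 3 females each. The Δ12 line carries a deletion within exon 12 of Htt and was sampled as +/+, Δ12/+ and Δ12/Δ12. The KO line goes back to a founder in which the same editing failed and the exon lost its normal splice donor, and it was sampled as +/+ and KO/+. Both alleles are germline alleles present in all cells, and homozygous KO animals were not viable, so that the KO allele was measured over 1 intact copy only. One title conflicts with its genotype label: striatum KO-line KO/+ female 3 carries a Δ12 title, and it was placed by genotype.

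Huntingtin is a large scaffold protein that couples vesicles to microtubule motors. HAP1, huntingtin-associated protein 1, links huntingtin to dynactin and to kinesin and is abundant in hypothalamic neurons, and DCTN1 (p150Glued) is the dynactin subunit that joins cargo to the dynein motor. HIP1 and HIP1R connect clathrin coats to actin, and PACSIN1 is a membrane-bending protein of endocytosis that is enriched in neurons. ZDHHC17 (HIP14) is a palmitoyltransferase that modifies huntingtin, and OPTN (optineurin) is an adaptor of Rab8, myosin VI and autophagy.

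The edited stretch is shown because it holds the coding sequence that the Δ12 allele is meant to lack. The study also describes a new splice donor site in that allele, and its sequence is not shown here. Htt lies on the plus strand of chromosome 5 (34761740 to 34912534, GRCm38, 1-based), and exon 12 of its 67-exon transcript ENSMUST00000080036 spans positions 34812852 to 34813192 in the GENCODE M21 annotation. The last 45 codons of that exon, codons 517 to 561 of the reference coding sequence (chr5:34813058-34813192), correspond to the part skipped in the human isoform that the allele imitates, and they are in capitals, followed by the first 30 nucleotides of exon 13.
Htt exon 12 end: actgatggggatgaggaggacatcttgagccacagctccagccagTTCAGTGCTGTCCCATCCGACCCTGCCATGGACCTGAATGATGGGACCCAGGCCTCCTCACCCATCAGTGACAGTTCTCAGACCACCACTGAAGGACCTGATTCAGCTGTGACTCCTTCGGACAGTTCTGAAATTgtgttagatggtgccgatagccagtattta
This is reference sequence; the exact ends of the deletion in the mouse allele are not given in the sources used here. The capitals start at a codon boundary and hold a whole number of codons, so that their removal keeps the reading frame. They make up 1.02% of the 13215 nucleotides of the transcript. The FPKM of a gene (fragment count scaled to transcript length and to library size) covers all its exons, so that the Htt values below measure the amount of transcript and are not a check of the Δ12 deletion.

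The other genes are, in the coordinates of the deposited tables (GRCm38), Hap1 on the minus strand of chromosome 11 (100347327 to 100356128), Hip1 on the minus strand of chromosome 5 (135406531 to 135545120) and Hip1r on its plus strand (123973628 to 124005558). Zdhhc17 lies on the minus strand of chromosome 10 (110941782 to 111010066) and Optn on the minus strand of chromosome 2 (5020642 to 5064051). Pacsin1 lies on the plus strand of chromosome 17 (27655509 to 27711106) and Dctn1 on the plus strand of chromosome 6 (83165920 to 83200117). All 8 are protein-coding genes. The longest annotated transcripts run from 2614 nucleotides for Optn and 3316 for Hap1 to 7835 for Hip1 and 13215 for Htt.

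The tissue and sex labels did not hold in these libraries, and this sets how the genes can be compared. With cortex-like defined as Slc17a7, the vesicular glutamate transporter of cortical excitatory neurons, above 100 FPKM, there were 30 cortex-like libraries (121 to 234 FPKM, Drd2 at most 18.5) and 30 striatum-like ones (Slc17a7 4.81 to 64.8 FPKM, Drd2 at least 29.4). Each kind held 15 libraries labelled cortex and 15 labelled striatum. All 8 striatal projection neuron markers had the higher median in striatum-like libraries, and 5 of 6 cortical markers in cortex-like ones. The kind followed labelled line instead, except that Δ12/Δ12 was split by labelled sex. Cortex-like libraries were the +/+ (12) and Δ12/+ (12) of the Δ12 line and the 6 labelled male Δ12/Δ12. Striatum-like ones were the +/+ (12) and KO/+ (12) of the KO line and the 6 labelled female Δ12/Δ12. In the order of samples in the series, all cortex-like libraries came before all striatum-like ones. Xist, the transcript of the inactive X, exceeded the Y-linked Ddx3y in 15 of 30 libraries labelled female and 15 of 30 labelled male. Genotypes were therefore compared among libraries of 1 kind, by label, with labelled tissue and sex as covariates and with the labelled mouse of each pair of libraries as a block. The 2 libraries of a labelled mouse had the same sex-linked transcript for only 16 of 30 labelled mice, so that for the others the labelled mouse does not stand for 1 animal. The Δ12 genotype labels could not be checked from gene-level FPKM. All labels are used as given, and the p-values measure the spread between libraries.

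FPKM were divided by a median-of-ratios factor for each library, and values below are scaled FPKM unless stated. The deposited tables hold no counts. Taken as counting intervals, their 95% bounds put the depth at 12700000 to 27500000 fragments; the medians were 14400000 for cortex-like and 18200000 for striatum-like libraries. The half-width of the deposited interval had a median of 5.39% of the FPKM for Dctn1 and 6.88% for Htt in striatum-like libraries. For Hip1 in cortex-like ones it was 33.1%. It does not measure the spread between libraries. The members have 5 to 12 annotated transcripts each, and what their intervals hold beside counting error was not tested. Statements on Hip1 in cortex-like libraries are correspondingly less firm.

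Dctn1 and Pacsin1 had the highest levels of the 8 genes in both kinds of library, and Optn and Hip1 the lowest. FPKM is per length of transcript, and on that measure levels are set side by side between genes. The ratio between the kinds still moved with transcript length, as given below. The order of genes of unlike length, and its change between kinds, is therefore less firm. In the cortex-like libraries the order of the medians was Dctn1 (18.2), Pacsin1 (15.5), Zdhhc17 (10.9), Hap1 (10.1), Htt (9.02), Hip1r (8.22), Optn (3.52) and Hip1 (3.36). The ranges of neighbours in that order overlapped except between Hip1r and Optn. Zdhhc17 was above Hap1 in 17 of 30 libraries, Htt above Hip1r in 18 and Optn above Hip1 in 16. These neighbours were not ordered beyond their spread. In the striatum-like libraries the order was Dctn1 (61.5), Pacsin1 (47.8), Hap1 (20.7), Htt (17.5), Zdhhc17 (16.3), Hip1r (10.9), Hip1 (8.77) and Optn (2.25). There the ranges did not overlap between Dctn1 and Pacsin1, between Pacsin1 and Hap1, and between Hip1 and Optn, while Hap1, Htt and Zdhhc17 overlapped.

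**Figure D1:**
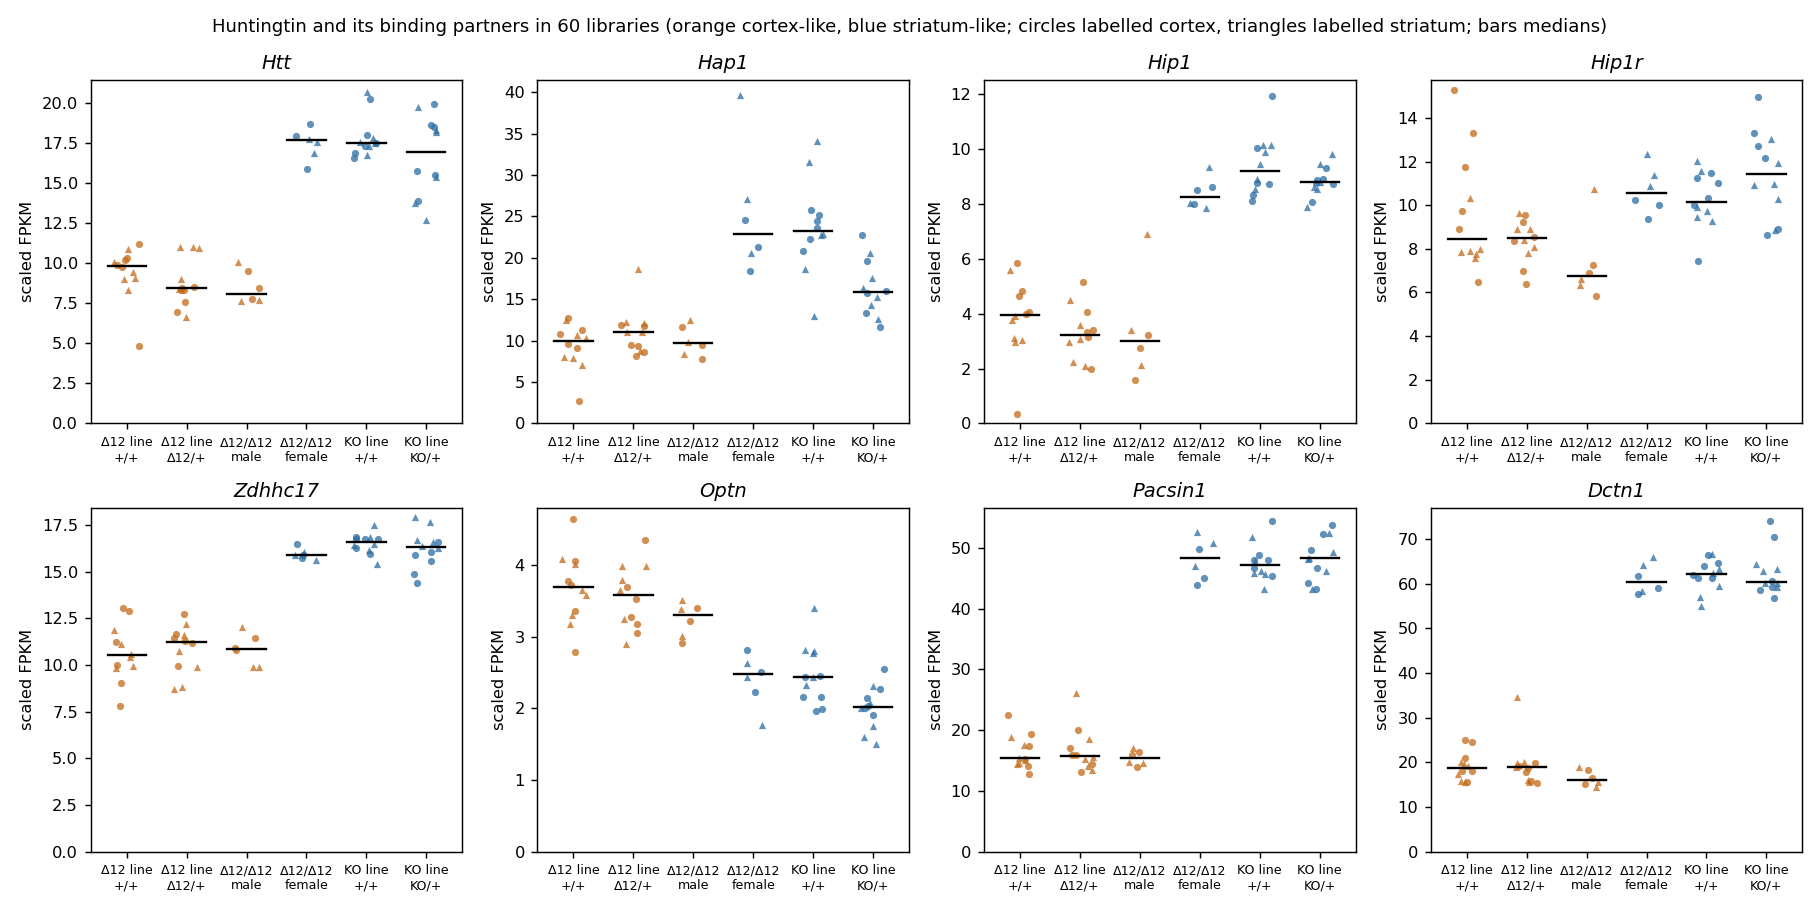
Scaled FPKM (y axis, linear, from 0) of each gene in the 60 libraries, by labelled line, genotype and, for Δ12/Δ12, labelled sex (x axis). Points are libraries and bars medians. Htt, Hip1, Zdhhc17, Pacsin1 and Dctn1 show every blue (striatum-like) point above every orange (cortex-like) point, Optn lies lower in blue, and 1 library of the Δ12-line +/+ lies lowest for Htt (4.81), Hap1 (2.69) and Hip1 (0.338).

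Huntingtin itself was at 4.81 to 11.2 in the 30 cortex-like libraries (median 9.02) and at 12.7 to 20.7 in the 30 striatum-like ones (median 17.5). Every striatum-like library was above every cortex-like one, and the medians differed by 1.94-fold. The motor-linked partners differed more for Dctn1 than for Hap1. Dctn1 ran from 14.5 to 34.6 in cortex-like and from 55.1 to 74.0 in striatum-like libraries, a 3.38-fold difference of medians without overlap. Hap1 ran from 2.69 to 18.6 and from 11.6 to 39.6, a 2.06-fold difference of medians, and 19 of the 30 striatum-like libraries exceeded the highest cortex-like one.

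Of the endocytic partners, Pacsin1 was at 12.7 to 26.1 in cortex-like and 43.1 to 54.4 in striatum-like libraries (3.08-fold), and Hip1 at 0.338 to 6.89 and 7.85 to 11.9 (2.61-fold), again with no overlap. Hip1r, the paralog of Hip1, was at 5.82 to 15.3 and 7.44 to 15.0, with medians 1.33-fold apart and no striatum-like library above the highest cortex-like one. The palmitoyltransferase Zdhhc17 was at 7.81 to 13.1 and 14.4 to 17.9 (1.50-fold, no overlap). Optn was the only 1 of the 8 with the lower median in striatum-like libraries, at 2.79 to 4.64 in cortex-like and 1.50 to 3.40 in striatum-like ones, and 26 of 30 striatum-like libraries were below the lowest cortex-like value.

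So 5 of the 8 genes were higher in every striatum-like library and none was lower in every one. Such a split is common in these data: among 16076 entries above the filter, 36.2% split the 2 kinds without overlap, 19.3% being higher in all striatum-like libraries and 16.9% lower in all. The log2 ratio of medians (with the pseudocount of 0.5) was 1.73 for Dctn1, above 93.5% of entries, and 1.59 for Pacsin1, above 91.6%. It was 0.92 for Htt, above 77.8% of entries, and 42.8% of entries differed by at least as much in either direction. The split is 1 between groups chosen by another gene and carries no test.

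Transcript length moved with this ratio over the whole table. Among 13007 protein-coding entries sorted into 4 classes of about equal number, the median log2 ratio rose from -0.70 in the class with the shortest transcripts (up to 2268 nucleotides) through about 0 and 0.30 to 0.64 in the class with the longest (4950 nucleotides or more). In that last class 38.5% of the genes were higher in all striatum-like libraries, against 5.54% in the first. Htt, Hip1, Hip1r and Zdhhc17 belong to the longest class, where Htt (0.92) and Hip1 (1.26) were above the median of the class, and Zdhhc17 (0.57) and Hip1r (0.39) below it. Pacsin1 and Dctn1 belong to the class before it, with ratios far above its upper quartile of 0.90. Hap1 and Optn belong to the second class, Hap1 with 1.01 above its upper quartile of 0.63 and Optn with -0.55 inside its middle range. The part of transcript length in the members' differences was not tested.

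**Figure D2:**
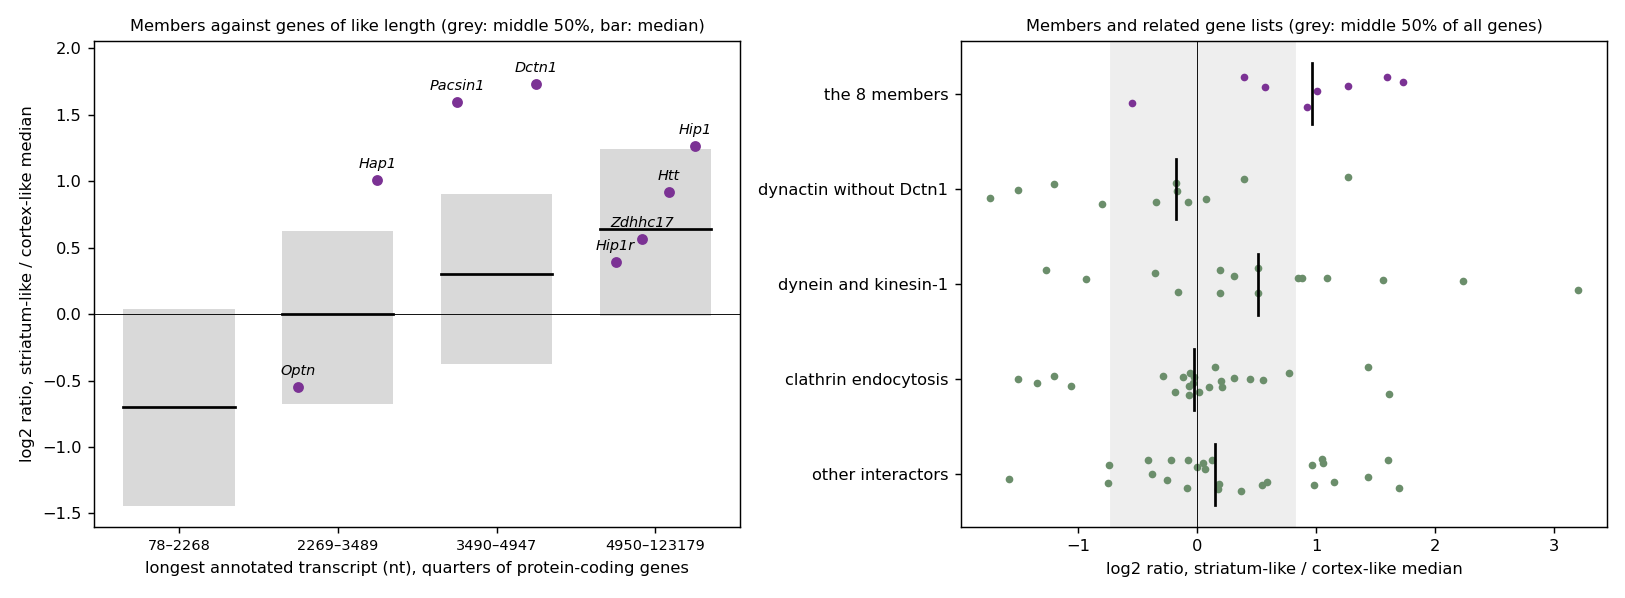
Log2 ratio of the medians of 30 striatum-like and 30 cortex-like libraries for the 8 genes, set against protein-coding genes in 4 classes of transcript length (left) and against related gene lists (right). Grey marks the middle 50% of genes and black bars medians. Dctn1 (1.73), Pacsin1 (1.59), Hap1 (1.01) and, narrowly, Hip1 (1.26) lie above the middle 50% of genes of like length, and the other dynactin subunits centre on -0.18.

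Genes of the same machinery did not share one direction, and ratios close to 0 depend on the scaling. These genes were not set against genes of like length, and the part of transcript length in their ratios was not tested. Their counts are to be read against the 19.3% of all entries that were higher in all striatum-like libraries and the 16.9% lower in all. The other 11 dynactin subunits had a median log2 ratio of -0.18 beside 0.03 over all entries: Dctn5 (1.26) was higher in all striatum-like libraries and 3 were lower in all, namely Dctn3 (-1.74), Dctn2 (-1.51) and Actr10 (-1.21), so that Dctn1 at 1.73 stood beyond the whole range of its complex. Of 15 dynein and kinesin-1 genes (median 0.51), 5 were higher in all striatum-like libraries, led by the neuronal kinesin heavy chain Kif5a (3.20) and the dynein light chain Dynll2 (2.24), and 2 lower in all, the dynein intermediate chain Dync1i1 (-1.27) and Dynll1 (-0.94). The 23 genes of clathrin-mediated endocytosis centred on -0.03. Among them the dynamin Dnm2 (1.61) and the clathrin assembly protein Picalm (1.44) were higher in all, and 4 were lower in all, with the clathrin light chain Clta (-1.51) the lowest. Of 26 other described interactors of huntingtin or HAP1 (median 0.15), 6 were higher in all and 2 lower in all. The palmitoyltransferase Zdhhc13, a relative of Zdhhc17, had the lowest ratio there (-1.58), opposite to Zdhhc17.

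The test that the labels allow for this contrast is that of the +/+ libraries of the KO line (12, all striatum-like) against those of the Δ12 line (12, all cortex-like). By limma with Benjamini-Hochberg adjustment 80.2% of the 15893 entries tested were called (6757 higher, 42.5%, and 5988 lower, 37.7%, or 5347 and 7036 on FPKM as deposited), and the call of 7 of the 8 genes is to be read against that share. Dctn1 was higher in the KO line by 1.68 on the log2 scale (SE 0.07, adjusted p = 3.41e-16), Pacsin1 by 1.52 (SE 0.07), Hap1 by 1.33 (SE 0.18), Hip1 by 1.31 (SE 0.22), Htt by 0.91 (SE 0.09, adjusted p = 6.82e-09) and Zdhhc17 by 0.62 (SE 0.07). Optn was lower, at -0.49 (SE 0.07, adjusted p = 1.77e-06). Hip1r differed by 0.13 (95% confidence interval -0.10 to 0.36, adjusted p = 0.282) and was not called; its sign turned on FPKM as deposited (-0.14), where the median of all entries moved from 0.06 to -0.19. Line, kind of tissue by expression, and place in the order of samples cannot be told apart here. Without the library cortex Δ12-line +/+ female 1 the difference was 0.82 for Htt, 1.19 for Hap1 and 1.10 for Hip1, all still called.

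The KO/+ libraries were compared with the +/+ libraries of their line to ask what an allele without the splice donor does to the transcript of the gene and its partners. Htt was at 16.6 to 20.7 in the 12 +/+ libraries (median 17.5) and at 12.7 to 20.0 in the 12 KO/+ libraries (median 17.0). The KO/+ values fell in 2 sets: 6 libraries at 12.7 to 15.7 lay below every +/+ library, and the other 6, at 18.2 to 20.0, lay within the +/+ range. The 2 libraries of a labelled mouse were both in the low set for 1 of the 6 labelled mice, split for 4 and both outside it for 1. The lowest value, 12.7, was that of the library whose title names the other line. Xist exceeded Ddx3y in 3 libraries of each set. Over all 12 libraries the log2 fold change of Htt was -0.10 (SE 0.07, 95% confidence interval -0.25 to 0.04, adjusted p = 0.387), and no reduction of Htt was called. It was -0.23 on FPKM as deposited (adjusted p = 0.0859) and -0.07 without the library whose title names the other line. Because 6 of the 12 libraries lay inside the +/+ range, KO/+ below means the libraries labelled KO/+.

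Hap1 was the 1 gene of the 8 that was called in KO/+ libraries, where it was lower. The +/+ libraries held Hap1 at 13.0 to 34.0 (median 23.2) and the KO/+ libraries at 11.6 to 22.7 (median 15.9). In the 6 KO/+ libraries with Htt below every +/+ library Hap1 was at 13.3 to 17.6, and in the other 6 at 11.6 to 22.7. Whether Hap1 follows Htt among KO/+ libraries was not tested. All 12 KO/+ libraries were below the median of the +/+ libraries, while 10 of the 12 were within the +/+ range, which reached down to 13.0 through the library striatum KO-line +/+ female 2 (the next was at 18.7). The log2 fold change was -0.52 (SE 0.13, 95% confidence interval -0.79 to -0.25, limma adjusted p = 0.0148), in a comparison in which 8.97% of 15917 entries were called, 5.49% lower and 3.48% higher (554 higher and 874 lower, or 48 and 1456 on FPKM as deposited, where Hap1 differed by -0.64). It was called in each of 24 fits that left out 1 library, with values from -0.59 to -0.47. Within libraries labelled striatum (6 against 6) it was -0.50 (adjusted p = 0.188) and within those labelled cortex -0.54 (adjusted p = 0.17), of the same size and not called in either.

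Transcripts of hypothalamic neurons moved with the same contrast. Of the 7 tested of 8 listed markers, 6 were called lower in KO/+: Gal (-1.46), Pmch (-3.76), Avp (-2.58), Trh (-0.61), Oxt (-1.68) and Hcrt (-1.86, on the log2 scale). Their summed level over all 8 markers was 5.41 to 144 in +/+ libraries (median 21.1) and 1.80 to 5.09 in KO/+ libraries (median 3.38), without overlap, and none of the 8 was at 0 in all libraries of either group. Within the +/+ libraries, the 2 with the highest Hap1 (34.0 and 31.6) had sums of 47.3 and 60.8, while the library with the highest sum (144) had Hap1 at 22.9. With the log2 sum as a covariate, Hap1 differed by -0.25 (SE 0.23, adjusted p = 0.699) and 0 entries were called (1782 at an unadjusted p under 0.05). The sums of the groups do not overlap, so that this fit has little left with which to separate genotype from the markers. All 5 measured oligodendrocyte markers were also called lower in KO/+, Cnp by -0.32 and Mag by -0.37, and the cortical marker Neurod6 higher, by 0.87. Of 8 striatal projection neuron markers 2 were called higher, Rgs9 by 0.31 and Penk by 0.30, and of 6 astrocyte markers 2 lower, Aqp4 by -0.49 and Gja1 by -0.21. Across kinds, cortex-like libraries had higher hypothalamic sums (median 113, against 6.62) and lower Hap1 (median 10.1, against 20.7) than striatum-like ones. Among cortex-like libraries the median sum was 66.8 in +/+, 119 in Δ12/+ and 180 in labelled male Δ12/Δ12. Hap1 differed from +/+ by 0.27 in Δ12/+ and by -0.06 in labelled male Δ12/Δ12, neither called. Whether Hap1 follows the marker sum was not tested. In bulk tissue, fewer cells of a type and less RNA per cell cannot be told apart.

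**Figure D3:**
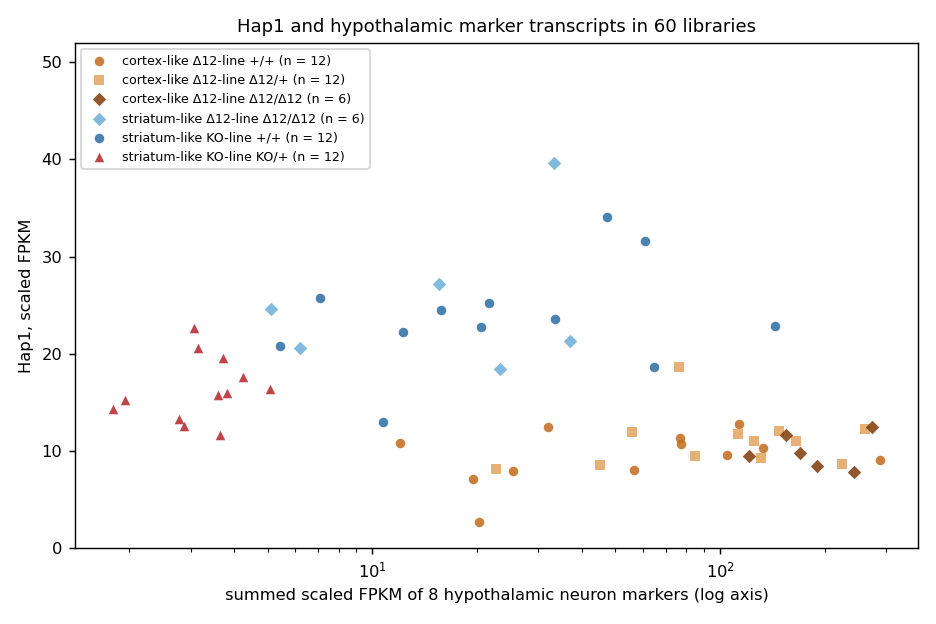
Hap1 in scaled FPKM (y axis, linear) against the summed scaled FPKM of 8 hypothalamic neuron markers (x axis, log scale) in the 60 libraries, by line, genotype and kind of library. The 12 KO/+ libraries lie at sums of 1.80 to 5.09, to the left of all 12 +/+ libraries of their line (5.41 to 144), and all below the +/+ median of Hap1 of 23.2.

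Optn was next in size among the members, at 1.96 to 3.40 in +/+ (median 2.44) and 1.50 to 2.55 in KO/+ (median 2.02), with 11 of 12 KO/+ libraries below the +/+ median. Its log2 fold change of -0.24 (SE 0.08) missed the threshold (adjusted p = 0.0562). It was -0.46 within libraries labelled striatum (adjusted p = 0.0241) and -0.02 within those labelled cortex (adjusted p = 0.931), and the difference between the labelled tissues, -0.44 (SE 0.12), had an adjusted p of 0.248. With the hypothalamic marker sum as a covariate Optn differed by 0.03 (SE 0.13, adjusted p = 0.955). The median half-width of its deposited interval in striatum-like libraries was 24.0% of the FPKM, the widest of the 8 genes there. The remaining partners were close to +/+ in KO/+ libraries. Dctn1 differed by 0.01 (95% confidence interval -0.08 to 0.10), Pacsin1 by 0.01 (-0.07 to 0.10), Zdhhc17 by -0.03 (-0.09 to 0.04), Hip1 by -0.08 (-0.19 to 0.02) and Hip1r by 0.13 (-0.05 to 0.32), none of them called. On FPKM as deposited, where the median of all entries was -0.10, Dctn1 and Pacsin1 differed by -0.12 and Hip1r by 0.01, also not called.

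The related lists held few calls in KO/+. None of 11 dynactin subunits was called. In the dynein and kinesin-1 list 2 of 15 were lower, Dync1i1 (-0.20, adjusted p = 0.00457) and Kif5a (-0.16, adjusted p = 0.0187), and in the endocytosis list 3 of 23, Pacsin2 (-0.21), Bin1 (-0.17) and Eps15 (-0.14). Of the 26 other interactors, Kalrn, first found as a HAP1 binder, was higher (0.28, adjusted p = 0.000968). The medians of these lists lay between -0.08 and 0.01, beside 0.02 over all entries tested, and the counts are to be read against the 8.97% called in the whole table.

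**Figure D4:**
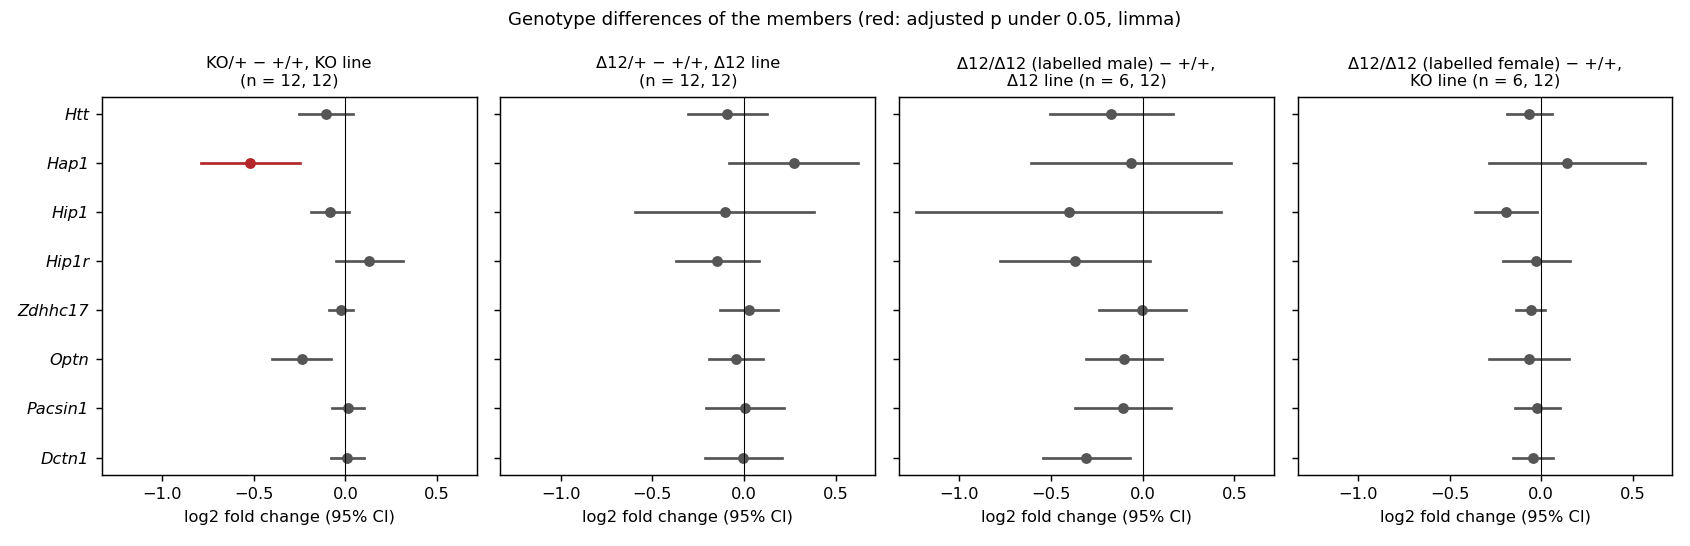
Log2 fold changes with 95% confidence intervals (x axis) of the 8 genes (y axis) in the 4 comparisons of labelled genotypes, by limma; red marks an adjusted p under 0.05. Hap1 in KO/+ (-0.52) is the only red value of 32, and the intervals are widest for Hip1 and Hap1 in the cortex-like Δ12 line.

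Libraries labelled Δ12/+ were compared with those labelled +/+ of the Δ12 line, all cortex-like, to ask whether transcript levels differed between the labelled genotypes. Htt was at 4.81 to 11.2 in +/+ (median 9.81) and at 6.66 to 11.0 in Δ12/+ (median 8.42), and all 12 Δ12/+ libraries were within the +/+ range. The log2 fold change was -0.09 (SE 0.10, 95% confidence interval -0.31 to 0.12, limma adjusted p = 0.83). Without cortex Δ12-line +/+ female 1, the +/+ library with the lowest Htt, it was -0.17. Hap1 differed by 0.27 (SE 0.17, adjusted p = 0.731), with +/+ at 2.69 to 12.7 and Δ12/+ at 8.17 to 18.6, and it fell to 0.13 without the same library.

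The other 6 genes differed by -0.15 (Hip1r) to 0.03 (Zdhhc17) in Δ12/+. Hip1 moved from -0.11 to -0.32 without cortex Δ12-line +/+ female 1 (adjusted p = 0.503 by limma). With all libraries, the intervals of Pacsin1 and Dctn1 ran from about -0.21 to 0.22. No member was called, and neither was any other of the 15173 entries tested (0% called, 1116 at an unadjusted p under 0.05). No gene of the 4 related lists was called either. The lower bound of -0.31 for Htt means that a loss of up to 0.31 on the log2 scale lies within the interval, wider than in the KO line.

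For Δ12/Δ12, the labelled sexes fell into different kinds of library and each was set against the +/+ libraries of its kind. The 6 labelled male libraries held Htt at 7.64 to 10.1 (median 8.08), within the range of the 12 +/+ libraries of the Δ12 line, and 5 of 6 were below the +/+ median. The log2 fold change was -0.17 (SE 0.16, 95% confidence interval -0.50 to 0.16, adjusted p = 0.772). Dctn1 was at 14.5 to 18.9 (median 16.0) against 15.6 to 25.1 in +/+ (median 18.7), with 3 of 6 below the lowest +/+ library. Its difference of -0.31 (SE 0.11) had an adjusted p of 0.349 by limma and was not called. Hip1r differed by -0.37 (SE 0.19, adjusted p = 0.538) and Hip1 by -0.40 (SE 0.39, adjusted p = 0.785), and the other 4 members by -0.11 (Pacsin1) to about 0 (Zdhhc17). In this comparison 0.0657% of 15230 entries were called (0.0197% higher and 0.046% lower), none of them a member or a gene of the 4 related lists.

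The 6 labelled female Δ12/Δ12 libraries were striatum-like, and the only +/+ libraries of that kind are those of the KO line, so that genotype and line are compared together, against the same +/+ libraries as KO/+. Htt was at 15.9 to 18.7 (median 17.7), with 5 of 6 libraries inside the +/+ range of 16.6 to 20.7, and the log2 fold change was -0.06 (SE 0.06, 95% confidence interval -0.19 to 0.06, adjusted p = 0.954). Hap1 had its highest value of the series here, 39.6, in a range of 18.4 to 39.6 (median 22.9), and differed from +/+ by 0.14 (SE 0.20, adjusted p = 0.99), a value that ran from -0.03 without striatum KO-line +/+ female 2 to 0.24 without female 1. The hypothalamic marker sum of these libraries was 5.12 to 36.9 (median 19.4). Hip1 was lower by -0.19 (SE 0.08) with 3 of 6 libraries below the lowest +/+ one, at an adjusted p of 0.902. The other 5 genes differed by -0.07 to -0.02. None of the 15797 entries was called by limma (854 at an unadjusted p under 0.05).

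Whether a genotype difference depended on the labelled tissue was tested as an interaction. None of the 8 genes was called for KO/+ (0 of 15917 entries called, 1939 at an unadjusted p under 0.05) or for Δ12/+ (0 of 15173 called, 903 at an unadjusted p under 0.05). The values closest to a call were those of Optn in the KO line, given above, and of Hip1r in the Δ12 line, where the log2 fold change of Δ12/+ was higher by 0.43 (SE 0.22, adjusted p = 0.848) in libraries labelled striatum.

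The genes also differed in how they varied among libraries of 1 kind. In striatum-like libraries the coefficient of variation (SD over mean, n = 30) was 4.57% for Zdhhc17, 6.57% for Dctn1 and 6.73% for Pacsin1, and 30.6% for Hap1. In cortex-like libraries it ran from 11.8% for Zdhhc17 to 26.0% for Hap1 and 38.3% for Hip1. The genes whose log2 levels were most like those of Htt over the 30 cortex-like libraries were Mbd1 (Pearson r = 0.847), Cacnb2 (0.802) and Cpne5 (0.792), and over the 30 striatum-like libraries Scyl3 (0.624), Gm10155 (0.604) and Gm3650 (0.599). The 2 sets shared no gene. For Hap1 the most similar gene was Tmem130 in both kinds of library, with r of 0.888 and 0.935. The closest genes to the others in striatum-like libraries were Rab11b for Dctn1 (0.844), Eef1a2 for Pacsin1 (0.828), Pakap for Optn (0.831), Zfp84 for Zdhhc17 (0.735), Brinp2 for Hip1r (0.646) and Gm6210 for Hip1 (0.629). In cortex-like ones they were Phactr1 for Dctn1 (0.866), Tubb4a for Pacsin1 (0.869), Spdya for Optn (0.68), Cdk17 for Zdhhc17 (0.851), Usp5 for Hip1r (0.761) and Bvht for Hip1 (0.854). Between members, Dctn1 and Pacsin1 varied together in both kinds (r = 0.567 and 0.631), whereas Htt and Hap1 did so in cortex-like libraries (r = 0.652) and had r = 0.0346 in striatum-like ones. These are descriptions over 30 libraries that share groups, depth and the library that stands apart, and the highest r among 15231 or 15958 entries is high by selection.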

How the data were processed

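RNA was extracted with a column kit, depleted of rRNA and made into stranded libraries sequenced on a NovaSeq6000. The submitters' processing notes name bcl2fastq 2.20, Trimmomatic 0.30, TopHat2 2.0.14, SAMtools 1.3, HTSeq 0.6.1p1 and the build GRCm38.p4, without their roles. For each of 60 libraries the authors deposited FPKM per gene with interval bounds, 47597 entries in Cufflinks layout; what made the FPKM is not given in the sources used here. Left out were 23 entries, among them Mbp, whose status was not OK in every library.

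FPKM were divided by a median-of-ratios factor (0.761 to 1.376, from 13235 entries above 0 in all libraries). Tests used limma 3.58.1 in R 4.3.3 on log2(scaled FPKM + 0.5), which understates the change of low genes, for entries with a mean of at least 0.5, two-sided, with labelled tissue and sex as covariates, a random block for the labelled mouse and Benjamini-Hochberg adjustment over all entries tested (called under 0.05). The study compared genotypes within each labelled tissue; those fits are among the alternatives. The fit without the mouse block was run on simulated KO-line libraries with independent normal noise and known changes. It called 98 of 100 genes changed by 1 on the log2 scale and 88 of 100 changed by 0.5. Of 15717 unchanged genes it called 9. The block and shared differences of tissue mixture were not part of that simulation. For depth, interval bounds were read as counting error in single-transcript entries (minimum 2000 nucleotides, minimum 20 fragments).

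The genes, lists and tests were chosen with earlier results of these data known. Named genes are the 8 members, up to 5 called genes per list and comparison with the smallest adjusted p, and the genes with the highest Pearson r (3 for Htt, 1 for each other member). Genes named for the ratio of striatum-like to cortex-like libraries were chosen after their values were seen. The lists were 4 of related machinery and 10 of cell type markers; the result of 1 marker is not reported here. Replicate numbers do not pair the libraries of 2 groups: 0 of 12 same-numbered pairs in the KO line had a correlation of deviations above 0.1. Sequence is from the GENCODE M21 transcripts (GRCm38). Its gene coordinates equal those of the tables for 6 of the 8 genes and differ at an end for Zdhhc17 and Pacsin1. Alternatives changed the scaling, pseudocount, filter, covariates, blocks, threshold or libraries 1 at a time, except that 2 fits for Δ12/Δ12 took 1 labelled tissue with both labelled sexes.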

Additional observations from a re-analysis of the deposited data

Results flagged for a closer look

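A library stood apart from the other 5 of its labelled group in 9 of the 80 sets tested (8 genes in 10 groups), where chance flags about 1 in 20. The Δ12/Δ12 groups mixed both kinds of library, so that for genes that split the kinds a single library could hardly stand apart there. Genes of the same library are also not independent, and the share of flags is only a rough guide. The library cortex Δ12-line +/+ female 1 was the lowest for Htt (4.81, others 9.75 to 11.2), Hap1 (2.69, others 9.08 to 12.7) and Hip1 (0.338, others 3.99 to 5.85). The library striatum Δ12-line Δ12/+ male 3 was the highest for Hap1 (18.6, others 8.69 to 12.2) and Dctn1 (34.6, others 15.6 to 20.1). That library also had the lowest Slc17a7 of the cortex-like libraries (121 FPKM as deposited) and the highest Drd2 (18.5). Single genes were set apart in 4 further libraries. These were Htt in striatum KO-line +/+ female 2 (20.7, others 16.8 to 17.8), Hip1 in striatum Δ12-line +/+ male 1 (5.59, others 2.98 to 3.91), Hip1r in cortex KO-line +/+ male 2 (7.44, others 10.00 to 11.5) and Hip1r in striatum Δ12-line +/+ female 3 (10.3, others 7.58 to 7.97). The parts of tissue mixture, RNA quality and labelling in these values were not tested.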

How the results depend on the processing

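No member that was called took the opposite sign under any alternative. Over the values of all members, called or not, the other sign came in 15 of 288 for KO/+ and 29 of 280 for Δ12/+. It came in 31 of 248 for labelled male and 13 of 232 for labelled female Δ12/Δ12. The call of Hap1 in KO/+ was lost within either labelled tissue and with the hypothalamic marker sum as a covariate (chosen after seeing the data), and Optn was called on FPKM as deposited (-0.34), with quantile normalization (-0.25), with Slc17a7 as a covariate (-0.30) and within labelled striatum (-0.46), and in 3 of 24 fits without 1 library, whereas with the marker sum it was 0.03 and not called; the cause was not tested. In the comparison of lines, Slc17a7 as a covariate ended the calls of Hap1 (1.85, adjusted p = 0.074), Hip1 (2.25, 0.072), Zdhhc17 (0.72, 0.0574) and Optn (-0.61, 0.151), with larger differences and larger SEs (0.95 for Hip1, 0.22 without the covariate), and Hip1r was called within labelled striatum (0.31). Slc17a7 defined the kinds of library, which coincide with line here, so the fit with Slc17a7 cannot separate line from kind. FPKM as deposited moved the median of all entries for KO/+ from 0.02 to -0.10.

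Counts of calls moved by over 1.5 times as follows. At an adjusted p under 0.1 they were 2318 for KO/+, 8 for Δ12/+ and 39 for labelled male Δ12/Δ12. Within labelled cortex they were 14, 10 and, for labelled female Δ12/Δ12, 91; within labelled striatum 1 for Δ12/+ and 1 for labelled female Δ12/Δ12. With the marker sum the count for KO/+ was 0. For labelled male Δ12/Δ12 it was 50 with quantile normalization and 2 with Slc17a7 as a covariate, and with both labelled sexes together 4381 in labelled striatum and 145 in labelled cortex. For labelled female Δ12/Δ12 it was 1 without labelled sex and 1 with Slc17a7, for the comparison of lines 5307 with Slc17a7, and for the interaction in the KO line 1 on FPKM as deposited. Leaving out 1 library gave 1042 to 1623 for KO/+, 12572 to 13042 for the lines, 0 to 18 and 0 to 1 for labelled male and female Δ12/Δ12 (18 without cortex Δ12-line +/+ male 1, 0 without male 2), and 0 to 34 for Δ12/+, with 34 without striatum Δ12-line Δ12/+ female 3.

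With a replicate block the counts were 1261 for KO/+, 12685 for the lines and 0 for the others (labelled male Δ12/Δ12 had 10 without it), and it changed no call of a member. Same-numbered libraries did not deviate together (mean correlation -0.058 over 12 pairs in the KO line). In cortex-like libraries the deposited interval was widest for Hip1, with a half-width of up to 91.7% of the FPKM. In striatum-like ones it was widest for Optn (median 24.0%).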
